A study of Sus scrofa with 40 samples.

Results

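The genes of glycolysis, the pentose phosphate pathway and the citrate cycle were followed in pig metaphase II oocytes, which are mature and arrested until fertilization. The members were 51 named enzymes, subunits and glucose transporters, taken by symbol and not by any measured value. Of these, 48 had a row among the 38794 named rows of both count tables, and ALDOA, RPE and H6PD were not analysed here. The oocytes came from commercial hybrid pigs of Large White, Duroc and Berkshire descent and were labelled mtDNA-deficient or mtDNA-normal. The pools, of which 5 were deficient and 6 normal, held RNA purified with a Picopure kit and amplified by single-primer isothermal amplification (labelled SPIA). The single oocytes, 14 deficient and 15 normal, were processed in the tube with the SoLo kit and primers for depletion of unwanted pig transcripts. The titles mark single oocytes BCBneg where deficient and BCBpos where normal, and pools neg or pos, and the labels do not spell BCB out. In oocyte work these letters commonly stand for brilliant cresyl blue, a dye that turns colourless in oocytes with an active oxidative arm of the pentose phosphate pathway. The part of such a sort in the pentose phosphate values was not tested. The labels do not describe how the mtDNA state was measured, they do not give the number of oocytes in a pool, and they name no animals; the p-values therefore cover only library-to-library spread, which may be technical.

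Glycolysis splits glucose into pyruvate, which is either reduced to lactate or carried into the mitochondrion. There the pyruvate dehydrogenase complex turns it into acetyl-CoA, which the citrate cycle oxidizes to feed the respiratory chain, whose core subunits are partly encoded by mtDNA. The pentose phosphate pathway branches from the top of glycolysis and supplies NADPH and the ribose of nucleotides. A mammalian oocyte is known to use little glucose by itself and to take pyruvate and lactate from its cumulus cells, and at metaphase II it makes almost no new RNA, so transcript levels at this stage mostly reflect stored RNA.

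Pools held 14480546 to 29538982 counts in named genes and single oocytes 706929 to 3067523. In single oocytes the row LOC102158401 took 46.7% to 76.0% of the counts, while RN18S, which encodes 18S ribosomal RNA, took 2.06% to 4.86%, so that levels in CPM, a gene's count divided by the total of its library and put on the usual common scale, are compressed there for all other genes. RN18S took 0.175% to 1.30% of the counts of a pool. The pools with the 4 highest RN18S shares, B2, B4, A2 and A4, were all normal, and the lowest share, 0.175%, was also that of a normal pool, A3. Among single oocytes the RN18S share was higher in deficient (median 3.89%) than in normal libraries (median 2.67%). Oocyte markers were abundant: 14 of 16 reached 10 CPM in pools and 13 of 16 in single oocytes. Of 22 markers of cumulus and granulosa cells, which surround the oocyte, 4 reached 10 CPM in pools (INHBA, VCAN, GREM1 and KITLG) and 2 in single oocytes, while FOXL2, LHCGR, AMH, KRT8 and 4 others had no count in any pool. The summed level of that list was 113 to 229 CPM in deficient and 139 to 208 CPM in normal pools, so the states overlapped. Markers of theca and stroma summed to 3.53 to 7.46 CPM in deficient and 6.62 to 12.4 CPM in normal pools, and those of leukocytes and blood to 0 to 4.14 and 0.367 to 1.22 CPM; the part of such cells in the results was not tested. As in any bulk sample, fewer oocytes contributing a transcript and less transcript per oocyte cannot be told apart.

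The members together made up a small part of the oocyte's RNA. Their summed level was 1039 to 1629 CPM in pools (median 1473) and 606 to 1825 CPM in single oocytes (median 1206). In pools the pyruvate entry genes held the largest part of this sum, at 736 ± 71.0 CPM (mean ± SD, n = 11, as for all pool levels below unless a state is named), and the 15 citrate cycle genes held 352 ± 86.3 CPM. The 7 pentose phosphate genes summed to 164 ± 43.3 CPM, the 10 genes of lower glycolysis and lactate to 100.2 ± 31.3 CPM, and the 10 genes of glucose uptake and upper glycolysis to 73.7 ± 27.95 CPM. In single oocytes the pentose phosphate sum was the highest of the 5, at 420.2 ± 109 CPM (n = 29, as for all single-oocyte levels below), while pyruvate entry stood at 219.8 ± 58.6 CPM. These sums are not divided by transcript length, which was not used here, so they describe counts and do not rank amounts of RNA between genes.

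At the head of the pathway, SLC2A1, the basal glucose transporter GLUT1, stood at 17.7 ± 6.81 CPM in pools, and SLC2A3 at 0.893 ± 0.848 CPM. Hexokinase was represented by HK2 (17.9 ± 6.71 CPM), while HK1, a hexokinase found in most tissues, stood at 0.494 ± 0.597 CPM. Phosphoglucose isomerase GPI stood at 7.15 ± 4.91 CPM. Among the phosphofructokinases, which commit sugar to glycolysis, the platelet form PFKP was at 15.8 ± 7.77 CPM, the muscle form PFKM at 2.40 ± 1.64 CPM, and the liver form PFKL had a count in 1 of 11 pools. The aldolase ALDOC stood at 9.95 ± 9.03 CPM and the triose phosphate isomerase TPI1 at 1.46 ± 2.03 CPM.

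Lower glycolysis carried few counts in pools. GAPDH, the dehydrogenase often used as a reference gene, stood at 1.56 ± 1.49 CPM, PGK1 at 3.27 ± 2.21 CPM and pyruvate kinase PKM at 13.9 ± 7.95 CPM. The enolases ENO1, ENO2 and ENO3 and the mutases PGAM1 and PGAM2 were all below 1 CPM, and PGAM2 had 0 counts in all 11 pools, which allows a level of up to 0.0116 CPM over the pools (3 counts in all pools together). Lactate dehydrogenase was higher in counts, with LDHA at 51.0 ± 20.9 CPM and LDHB at 29.9 ± 2.85 CPM. GAPDH and several of its neighbours in the pathway have near-identical copies in mammalian genomes, and 2 annotated genes carry the symbol LDHB, so counts of these genes are uncertain where the counting could split reads between copies.

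In the pentose phosphate pathway, the ribose-5-phosphate isomerase RPIA led at 77.6 ± 25.2 CPM in pools. The phosphoribosyl pyrophosphate synthetases, which pass ribose on to nucleotide synthesis, followed with PRPS2 at 37.1 ± 16.8 CPM and PRPS1 at 30.7 ± 4.94 CPM. PGD, which makes NADPH in the oxidative arm, stood at 9.31 ± 6.76 CPM, the transketolase TKT at 7.11 ± 6.74 CPM and the transaldolase TALDO1 at 1.81 ± 1.46 CPM. PGLS, the lactonase of the oxidative arm, stood at 0.0970 ± 0.169 CPM.

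The pyruvate dehydrogenase complex held the 2 highest members in pools. PDHX, the protein that binds the E3 component to the core of the complex, stood at 394.8 ± 62.5 CPM and PDHA1, the catalytic E1 alpha subunit, at 240.2 ± 40.3 CPM. The E2 component DLAT was at 65.8 ± 12.01 CPM, the E3 component DLD, which several dehydrogenases share, at 22.2 ± 15.4 CPM and the E1 beta subunit PDHB at 13.4 ± 3.35 CPM. Pyruvate carboxylase PC, the other entry for pyruvate, stood at 0.129 ± 0.229 CPM.

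Of the citrate cycle, DLST, the E2 component of oxoglutarate dehydrogenase, led at 125 ± 36.9 CPM in pools, against 2.23 ± 2.18 CPM for its E1 component OGDH. Citrate synthase CS stood at 35.8 ± 12.7 CPM. The cytosolic isocitrate dehydrogenase IDH1 was at 57.5 ± 24.4 CPM and the mitochondrial IDH2 at 8.25 ± 7.62 CPM, both NADP-dependent. In the NAD-dependent enzyme, IDH3A was at 51.6 ± 10.05 CPM, IDH3G at 1.44 ± 1.18 CPM and IDH3B at 0.773 ± 0.819 CPM. The succinyl-CoA ligase subunits SUCLA2, SUCLG2 and SUCLG1 stood at 29.9 ± 14.9, 17.7 ± 5.08 and 4.27 ± 3.17 CPM. Fumarase FH was at 7.91 ± 4.37 CPM, the malate dehydrogenases MDH1 and MDH2 at 3.66 ± 2.20 and 1.08 ± 0.777 CPM, and ACO1, the cytosolic aconitase that also acts as an iron sensor, at 4.60 ± 7.41 CPM.

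**Figure D1:**
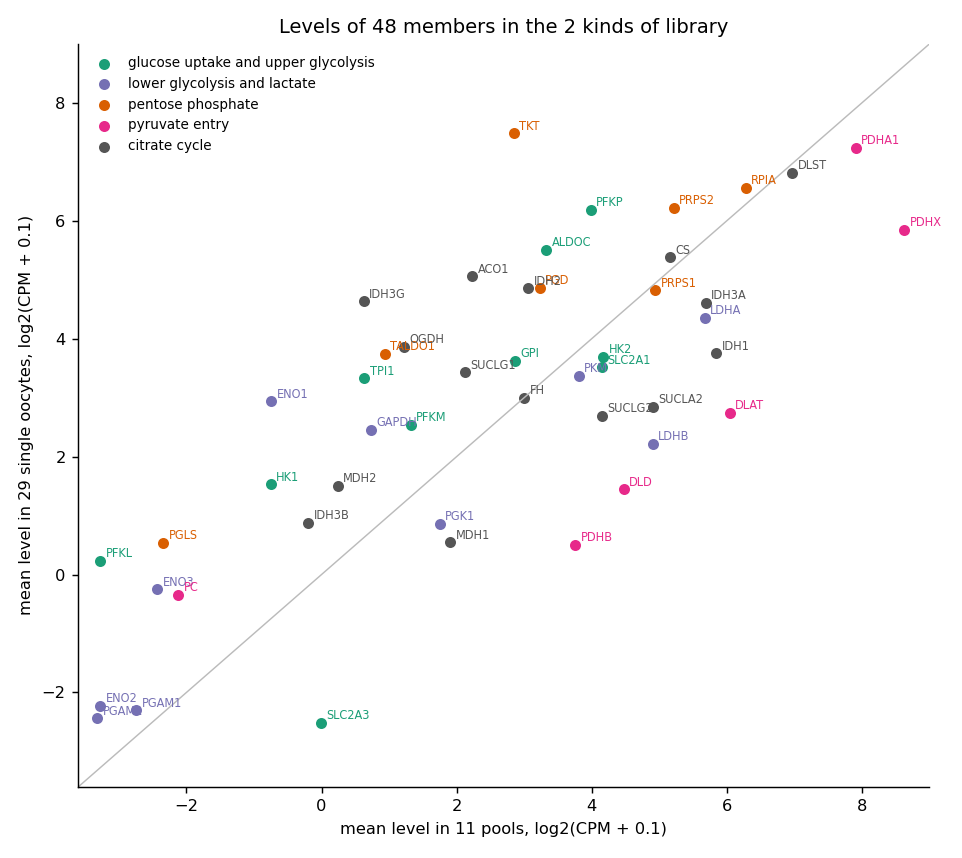
Mean level of each of the 48 members in 11 pools (horizontal axis) and in 29 single oocytes (vertical axis), both as log2(CPM + 0.1) and coloured by pathway, with the line of equal levels. PDHX, DLAT, DLD and PDHB lie below the line and TKT, IDH3G and ENO1 far above it, while PDHA1 and DLST lie near it. The totals behind the CPM include LOC102158401 and RN18S.

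Members differed in how steady they were between pools. Of the 41 members with enough counts for a test in pools, 7 had a coefficient of variation below 25%, and 4 of these were subunits of the pyruvate dehydrogenase complex (PDHX 15.8%, PDHA1 16.8%, DLAT 18.3% and PDHB 24.9%); the others were LDHB at 9.55%, PRPS1 at 16.1% and IDH3A at 19.5%. Another 5 had a coefficient of 100% or more, among them ACO1 (161%) and TPI1 (139%). The extremes gathered in a few libraries: normal B2 was the highest pool for 15 of the 41 members, while deficient A2 was the lowest for 17 and normal A3 for 13. Those last 2 pools also had the fewest genes detected, 14207 and 15057, against 19245 in normal B2. In single oocytes 20 members were counted in all 29 libraries and a library held 31 to 41 members (median 38), against 36 to 44 (median 42) in pools.

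Between the mtDNA states in pools, no member passed edgeR's quasi-likelihood test at an adjusted p under 0.05. The background was the same, 0% of 13540 genes. DESeq2 called 28 genes and limma-voom 0, none of them members. Of the 41 members tested, 29 had lower and 12 had higher values in deficient pools, against 50.2% lower among all genes, and the median log2 difference was -0.27, against -0.0019 for all genes. At an unadjusted p under 0.05 there were 7 members, where the background was 5.36% of all genes; 2 were higher (background 2.90%) and 5 lower (background 2.46%). No member's groups were free of overlap, against 0.598% of all genes. By pathway, 8 of 9 members of glucose uptake and upper glycolysis were lower (median log2 difference -0.71), as were 4 of 6 in lower glycolysis and lactate (-0.24). In the pentose phosphate group 4 of 6 were lower (-0.25), in pyruvate entry 3 of 5 (-0.03) and in the citrate cycle 10 of 15 (-0.56). With the RN18S share as a covariate 19 of 41 members were lower and the median was 0.08, and with the number of genes detected as a covariate 21 were lower and the median was -0.04. The part of RN18S or of library complexity in the lower values was not tested.

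**Figure D2:**
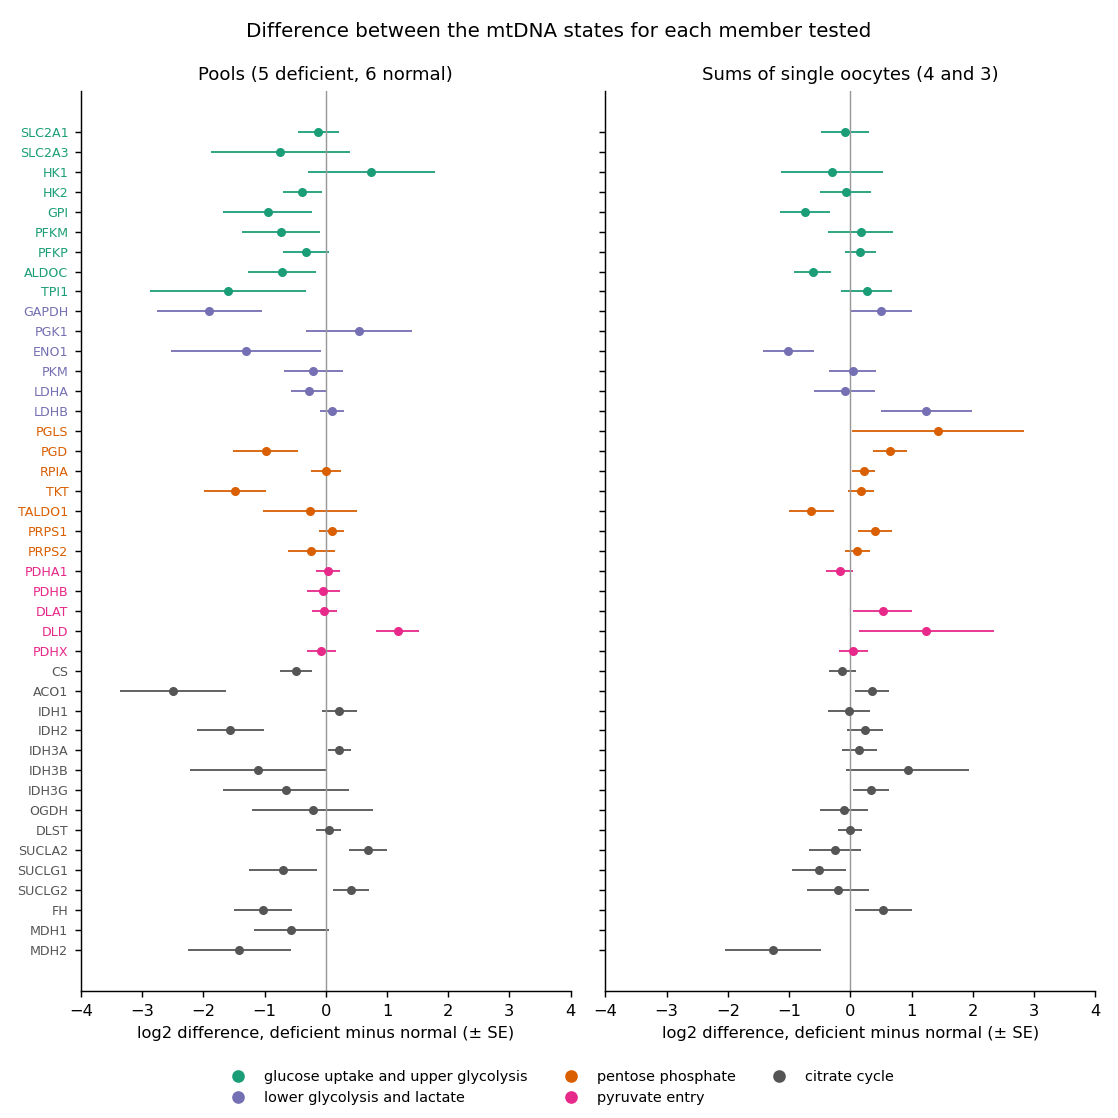
Log2 difference between mtDNA-deficient and mtDNA-normal libraries (edgeR, point) with its SE (line) for each member tested, in pools on the left and in sums of single oocytes on the right, coloured by pathway. In pools 29 of 41 points lie left of 0 and in the sums 17 of 38, and no point passed the test.

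DLD, which reoxidizes the lipoyl groups of the pyruvate, oxoglutarate and branched-chain dehydrogenases, had the smallest p of the members. Its levels in deficient pools were 43.6 (A1), 7.94 (A2), 17.5 (A3), 30.2 (B2) and 57.4 CPM (B4), and normal pools ran from 11.3 through a median of 14.6 to 18.0 CPM. Thus 3 deficient pools lay above all normal pools, 1 lay among them and A2 lay below them all. The means were 31.3 ± 19.8 (SD, n = 5) and 14.5 ± 2.30 CPM (SD, n = 6). This was a log2 difference of 1.18 (SE 0.35) with an edgeR p of 0.00397 and an adjusted p of 0.690. With RN18S share as a covariate the log2 difference was 1.12 (SE 0.40), within pools titled A it was 0.70 and within those titled B 1.70. Its partners in the complex differed by less than their SE: PDHX was at 395.6, 414, 343, 347 and 329.6 CPM in deficient pools A1, A2, A3, B2 and B4 and at 317 to 489 CPM (median 445) in normal pools. PDHA1 was at 209.5, 148, 295, 269.9 and 244 CPM in the same deficient pools and at 215 to 275 CPM (median 249) in normal pools.

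SUCLA2, the ATP-forming subunit of succinyl-CoA ligase, was the other member with higher values and an unadjusted p under 0.05. It stood at 33.0, 26.7, 31.02, 19.7 and 70.1 CPM in deficient pools A1, A2, A3, B2 and B4 and at 12.2 to 36.8 CPM (median 24.9) in normal pools. All but deficient B4 lay within the normal range. The log2 difference was 0.69 (SE 0.31, adjusted p = 0.921 by edgeR) and was 0.35 without deficient B4.

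TKT, the reversible link between the pentose phosphate pathway and glycolysis, had lower values in deficient pools. It stood at 3.21 (A1), 2.00 (A2), 3.26 (A3), 5.43 (B2) and 2.02 CPM (B4) in deficient pools and at 1.70 to 23.7 CPM (median 8.87) in normal pools. The means were 3.19 ± 1.40 and 10.4 ± 7.82 CPM, and the log2 difference was -1.49 (SE 0.50, adjusted p = 0.845 by edgeR). IDH2, which makes NADPH in the mitochondrion, stood at 6.28, 1.10, 1.90, 7.70 and 1.45 CPM in deficient pools A1, A2, A3, B2 and B4 and at 2.98 to 27.2 CPM (median 10.4) in normal pools. Its log2 difference was -1.56 (SE 0.55, adjusted p = 0.874 by edgeR). GAPDH stood at 1.12, 0, 0.882, 0.469 and 0.308 CPM in the same deficient pools and at 0.229 to 4.50 CPM (median 2.68) in normal pools, which gave a difference of -1.90 in log2 (SE 0.86, adjusted p = 0.921 by edgeR). For all 3 genes the highest values were those of normal B2, B4, A2 and A4, the pools with the 4 highest RN18S shares, while normal B1 lay within the deficient range and normal A3 within it for IDH2 and GAPDH and below it for TKT. With the RN18S share as a covariate the log2 difference of TKT was -0.41 (SE 0.41), that of IDH2 -0.70 (SE 0.43) and that of GAPDH -1.07 (SE 0.96). RN18S share and these levels moved together, and its part in the differences was not tested.

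ACO1 stood at 1.02 (A1), 0.898 (A2), 0.397 (A3), 4.02 (B2) and 0.792 CPM (B4) in deficient pools and at 1.66 to 26.2 CPM (median 3.86) in normal pools. Deficient B2 alone reached into the normal range, and normal A3 stood apart at 26.2 CPM, with the next pool at 6.25 CPM. The log2 difference was -2.50 (SE 0.87, adjusted p = 0.874 by edgeR), and it was -1.09 without normal A3. FH, which hydrates fumarate to malate, stood at 5.96, 0.483, 3.84, 9.02 and 5.02 CPM in deficient pools A1, A2, A3, B2 and B4 and at 6.10 to 14.9 CPM (median 9.98) in normal pools. Only deficient B2 lay within the normal range. The log2 difference of FH was -1.03 (SE 0.48, adjusted p = 0.921 by edgeR), and it was -0.87 (SE 0.51) with the RN18S share as a covariate.

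**Figure D3:**
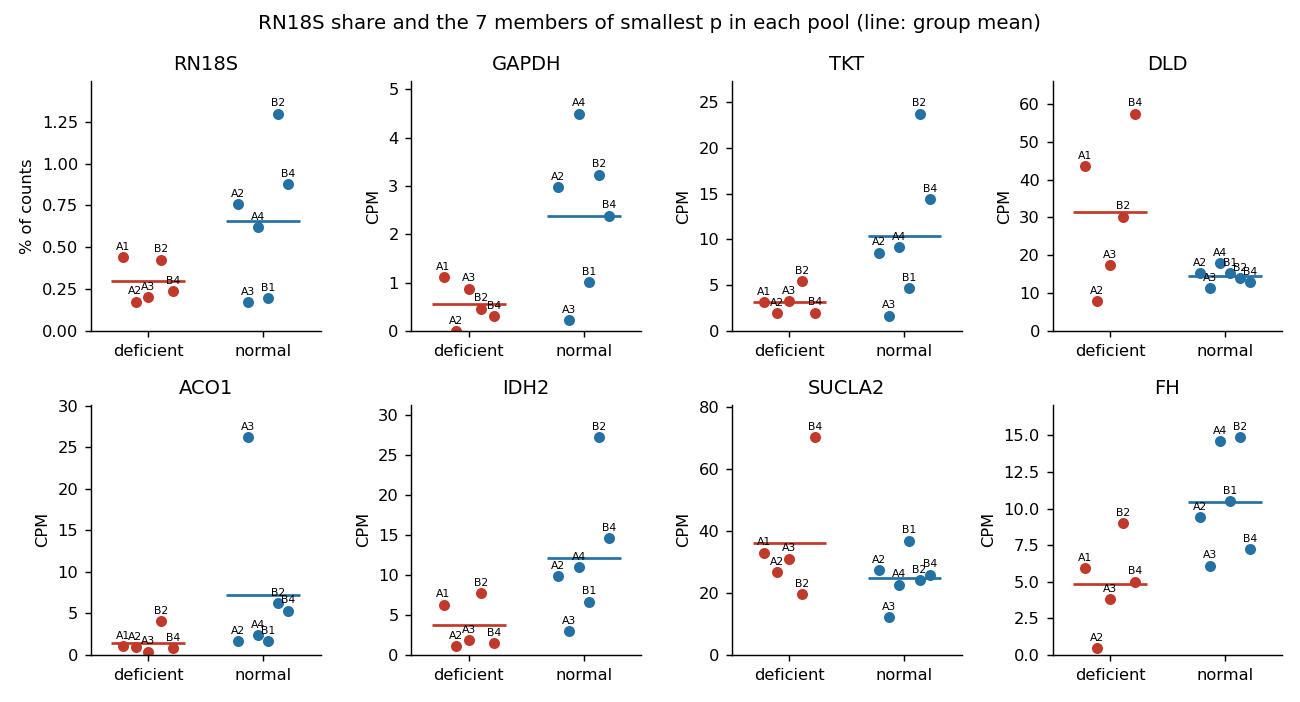
RN18S share (% of counts, top left) and the level in CPM of the 7 members with an unadjusted p under 0.05 in each of 5 deficient (red) and 6 normal pools (blue), labelled by pool, with a line at each group's mean. Normal B2, B4, A2 and A4 are highest for RN18S, GAPDH, TKT and IDH2, deficient B4 stands apart for SUCLA2 at 70.1 CPM and normal A3 for ACO1 at 26.2 CPM.

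The 2 most abundant members of each pathway overlapped between the states in pools. SLC2A1 was at 15.2, 21.96, 13.6, 16.9 and 8.67 CPM in deficient pools A1, A2, A3, B2 and B4 and at 6.42 to 28.8 CPM (median 19.7) in normal pools. HK2 was at 12.8, 5.32, 11.7, 17.2 and 27.7 CPM in the same deficient pools and at 16.9 to 28.5 CPM (median 18.8) in normal pools, which gave a difference of -0.38 in log2 (SE 0.32, adjusted p = 0.922 by edgeR). For HK2 the 3 deficient pools titled A lay below all normal pools and the 2 titled B lay among them. LDHA stood at 48.4, 18.8, 57.4, 43.6 and 44.6 CPM in deficient pools and at 18.4 to 82.8 CPM (median 61.0) in normal pools, while LDHB stayed within 26.7 to 33.0 and 25.4 to 34.3 CPM. RPIA was at 59.4, 41.5, 84.3, 59.9 and 125 CPM in deficient pools against 54.4 to 112 CPM (median 80.2) in normal pools. PRPS2 was at 41.0, 5.59, 16.2, 55.4 and 44.8 CPM against 20.4 to 56.7 CPM (median 45.0), with deficient A2 and A3 below all normal pools. DLST was at 161, 84.3, 74.4, 140.1 and 145 CPM against 85.9 to 173 CPM (median 125), and IDH1 at 60.5, 27.8, 33.2, 72.1 and 105 CPM against 29.8 to 78.3 CPM (median 60.4). For SLC2A1, LDHA, LDHB, RPIA, PRPS2, DLST and IDH1 the log2 difference was smaller than its SE, so no direction is given.

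Single oocytes were compared as sums over the oocytes of 1 state that share a title number, 4 deficient sums of 2 to 7 oocytes and 3 normal sums of 4 to 7. Sums 1 and 3 hold oocytes dated 17 September in the column names and sum 2 those of 22 September, while sum 4 joins both dates, 3 and 4 oocytes in the deficient and 5 and 2 in the normal sum. None of the 38 members tested passed, and neither did any of 11964 genes (0%). Here 21 members had higher and 17 lower values in deficient sums, against 49.7% higher among all genes, and the median log2 difference was 0.08. At an unadjusted p under 0.05 there were 2 members, ENO1 and PGD, where the background was 1.93% of all genes. By pathway 3 of 8 members of glucose uptake and upper glycolysis were higher, and so were 3 of 5 in lower glycolysis and lactate. The count was 6 of 7 in the pentose phosphate group, 3 of 4 in pyruvate entry and 6 of 14 in the citrate cycle. With the title number as a replicate block, on the 6 sums that share one, edgeR called 2 genes, and DESeq2 without the block also called 2, none of them members. Values of members in the sums come from the fit without the block, except where an alternative is named.

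PGD, which yields NADPH and ribulose 5-phosphate, stood at 39.0, 40.7, 29.3 and 36.5 CPM in deficient sums 1 to 4 and at 24.6, 11.8 and 27.1 CPM in normal sums 2 to 4. All deficient sums lay above all normal sums. The log2 difference was 0.65 (SE 0.28, edgeR p = 0.0342, adjusted p = 1.00). The column names carry 2 dates. On the 17th PGD averaged 35.2 ± 7.96 CPM (SD, n = 8) in deficient and 21.8 ± 12.6 CPM (n = 9) in normal oocytes. On the 22nd it averaged 38.8 ± 20.2 CPM (n = 6) and 21.8 ± 12.5 CPM (n = 6). Single oocytes of the 2 states overlapped on both dates, at 24.2 to 44.4 against 3.59 to 44.0 CPM and at 17.6 to 74.6 against 2.83 to 36.7 CPM. The RN18S share, with medians of 3.89% in deficient and 2.67% in normal single oocytes, differed in the same direction, and the share of LOC102158401, with medians of 59.9% and 64.1%, in the other. RPIA also showed no overlap, with 118, 90.7, 90.9 and 117 CPM in deficient and 89.0, 62.0 and 85.0 CPM in normal sums, which gave a difference of 0.22 in log2 (SE 0.19, adjusted p = 1.00 by edgeR). These 2 were the only members tested whose groups did not overlap, where 3.73% of all genes did not. With LOC102158401 and RN18S left out of the totals RPIA overlapped, at 314, 313, 270.5 and 279 CPM in deficient and 275, 235 and 232 CPM in normal sums. PGD did not overlap on that scale, at 103.9, 141, 87.1 and 86.7 against 76.2, 44.7 and 74.2 CPM, and neither did ENO1, where the background was 3.90% of all genes. The part of RN18S in the PGD result was not tested. Among the other pentose phosphate genes, TKT was at 239, 191, 178 and 184 CPM in deficient and 197, 105 and 172 CPM in normal sums, and PRPS2 at 74.2, 67.7, 62.8 and 112 against 62.4, 56.5 and 69.6 CPM, with overlap in both cases. TALDO1 was the only member of this group with lower values in deficient sums. It stood at 6.62, 8.46, 13.4 and 13.5 against 19.3, 9.65 and 15.5 CPM, also with overlap. Its log2 difference was -0.64 (SE 0.37). The median of the 7 pentose phosphate genes was 0.22 on the log2 scale and lay between 0.13 and 0.30 under 21 alternatives. In pools PGD stood at 4.79, 2.21, 5.38, 9.53 and 5.81 CPM in deficient A1, A2, A3, B2 and B4 and at 0.825 to 21.6 CPM (median 12.2) in normal pools, which gave a difference of -0.98 in log2 (SE 0.53, adjusted p = 0.921 by edgeR) that was -0.32 with the RN18S share and 0.067 with the number of genes detected as a covariate.

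ENO1, the enolase of most tissues, stood at 4.53, 4.43, 4.76 and 7.60 CPM in deficient sums 1 to 4 and at 11.5, 7.52 and 9.23 CPM in normal sums 2 to 4, so that deficient sum 4 overlapped with normal sum 3. Without LOC102158401 and RN18S in the totals it stood at 12.1, 15.3, 14.2 and 18.05 against 35.5, 28.5 and 25.2 CPM. Its log2 difference was -1.01 (SE 0.41, edgeR p = 0.0258, adjusted p = 1.00). Per oocyte ENO1 ran from 0 to 13.9 CPM (median 5.52) in deficient and from 1.24 to 24.4 CPM (median 7.79) in normal oocytes. In pools ENO1 had counts in 2 of 5 deficient and 5 of 6 normal libraries, at 0.251 ± 0.353 and 0.703 ± 0.580 CPM. DLD in the sums was at 0, 9.67, 2.38 and 3.43 CPM in deficient and 0, 1.75 and 2.64 CPM in normal sums, which gave a difference of 1.24 in log2 (SE 1.10, adjusted p = 1.00 by edgeR). It was 0.14 without deficient sum 2 and 0.69 without normal sum 2. For the other members with an unadjusted p under 0.05 in pools, the values of the 2 states lay as follows. ACO1 stood at 45.3, 42.3, 36.2 and 34.8 against 19.7, 26.9 and 35.5 CPM, which gave a difference of 0.35 in log2 (SE 0.27, adjusted p = 1.00 by edgeR) that was 0.10 with sums by title number and date and -0.18 on 17 September with each oocyte as a sample. IDH2 stood at 36.9, 16.9, 39.3 and 33.0 against 18.0, 23.7 and 27.02 CPM, and SUCLA2 at 5.57, 8.06, 5.78 and 7.96 against 7.43, 6.64 and 7.25 CPM, with overlap for both and differences smaller than their SE. FH was at 18.5, 6.45, 5.95 and 9.92 against 3.61, 5.39 and 8.90 CPM, which gave a difference of 0.53 in log2 (SE 0.47, adjusted p = 1.00 by edgeR). For FH it was 0.14 without deficient sum 1, 0.17 with sums by title number and date and -0.021 with each oocyte as a sample and the title number as a block. GAPDH was at 6.62, 3.22, 7.32 and 7.47 against 2.76, 3.51 and 5.05 CPM, a difference smaller than its SE.

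Whether the effect of the mtDNA state differed between sums and pools was tested directly. None of 44 members passed, nor did any of 17643 genes (0%), while DESeq2 called 1 gene, which was no member. The difference of the effects, sums minus pools, was above 0 for 32 members, against 52.4% of all genes. An unadjusted p under 0.05 was reached by 5 members, where the background was 5.32%. These were TKT (1.62, SE 0.58), ACO1 (2.79, SE 1.06), IDH2 (1.77, SE 0.73), PGD (1.60, SE 0.71) and GAPDH (2.37, SE 1.11), each with an edgeR adjusted p of 0.886 to 0.904. Their own effects passed no test in pools or in sums. This comparison shares its libraries with the 2 above and adds no independent samples.

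Single oocytes and pools were then compared over both mtDNA states. Kit, extraction and number of oocytes all differ between single oocytes and pools and cannot be told apart. Of 42 members tested, 31 (73.8%) passed edgeR's test, against 69.1% of 15977 genes, so the share itself was near the background. In single oocytes 21 members were called higher (background 35.1%) and 10 lower (background 34.0%). The choice of scaling moved the median of all genes from 0.03 with TMM to 0.47 with DESeq2 size factors, under which 25 members were higher and 8 lower and 6648 genes were higher and 4459 lower, against 5606 and 5433 in the main test. Among members LDHA and IDH3A were then not called lower, while PRPS1, IDH3B, DLST and FH were called higher in addition. The log2 differences are scaled by these factors and can differ in sign from a ratio of mean CPM near 1, as for DLST.

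Pyruvate entry was lower in single oocytes, with 4 of 6 members called lower and a median log2 difference of -2.44 that lay between -3.15 and -1.99 under 7 alternatives. DLAT fell from 65.8 ± 12.01 CPM in pools, with a range of 48.8 to 83.7 CPM, to 6.58 ± 6.12 CPM in single oocytes, with a range of 0 to 31.7 CPM (difference of -3.00 in log2, SE 0.23, adjusted p = 4.29e-11 by edgeR). The libraries of the 2 kinds did not overlap for DLAT in CPM, whose totals include LOC102158401 and RN18S. These rows took 55.0% and 4.15% of the counts of deficient S23, the single oocyte with the highest DLAT level, 31.7 CPM. Without them the DLAT mean of single oocytes was 17.9 CPM. On that scale S23 lay within the range of the pools, so the 2 kinds overlapped. The share of all genes without overlap between the kinds was not counted. PDHB was at 8.77 to 18.6 CPM in pools and 0 to 11.6 CPM in single oocytes, where 16 of 29 had a count (difference of -3.09 in log2, SE 0.51, adjusted p = 8.25e-06 by edgeR). DLD was counted in 14 of 29 single oocytes, with a highest value of 19.9 CPM, against 7.94 to 57.4 CPM in pools (difference of -2.54 in log2, SE 0.53, adjusted p = 0.000153 by edgeR). PDHX was at 317 to 489 CPM in pools and 21.7 to 102 CPM in single oocytes (difference of -2.35 in log2, SE 0.19, adjusted p = 9.23e-11 by edgeR). PDHA1 did not pass: it stood at 148 to 295 CPM in pools and 77.9 to 289 CPM in single oocytes, which gave a difference of -0.30 in log2 (SE 0.17, adjusted p = 0.121 by edgeR) that was 0.13 with DESeq2 size factors. DLST, the matching E2 component of oxoglutarate dehydrogenase, was at 125 ± 36.9 and 113 ± 35.1 CPM (difference of 0.30 in log2, SE 0.16, adjusted p = 0.0946 by edgeR; 0.74 and past the threshold with DESeq2 size factors). PC was called higher, from 0.129 to 0.686 CPM, on 26 counts in all single oocytes, with a count in 11 of 29. In normal libraries alone, and with oocytes of 17 September only, 5 members of pyruvate entry were tested and 0 were higher.

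**Figure D4:**
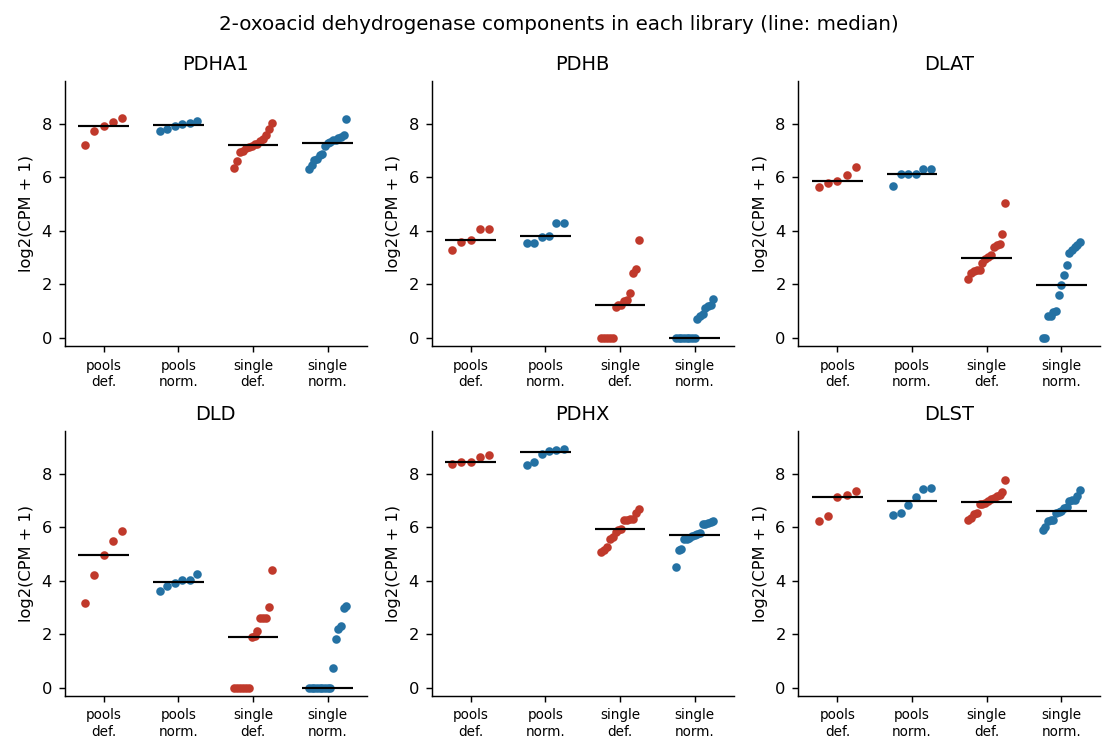
Level of 5 components of the pyruvate dehydrogenase complex and of DLST as log2(CPM + 1) in each pool and each single oocyte, by mtDNA state (red deficient, blue normal), with a line at each group's median. PDHB, DLAT, DLD and PDHX are lower in single oocytes, many of which have no count of PDHB and DLD. On this scale PDHA1 and DLST stand at similar heights in both kinds of library. The totals include LOC102158401, which took 46.7% to 76.0% of the counts of single oocytes.

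The pentose phosphate genes were higher in single oocytes, 5 of 6 past the threshold and a median of 1.98. TKT had the largest difference of the members tested. It ranged from 1.70 to 23.7 CPM in pools (median 4.71) and from 56.4 to 270.4 CPM in single oocytes (median 177), with no overlap between the kinds of library (difference of 5.59 in log2, SE 0.36, adjusted p = 2.09e-12 by edgeR). TALDO1, its partner in the non-oxidative arm, rose from 1.81 ± 1.46 to 13.3 ± 7.38 CPM (difference of 3.41 in log2, SE 0.46, adjusted p = 5.55e-07 by edgeR). PGD rose with a log2 difference of 2.40 (SE 0.40), PRPS2 with 1.55 (SE 0.26) and RPIA with 0.76 (SE 0.18), all past the threshold, RPIA not in normal libraries alone (0.55, adjusted p = 0.0595 by edgeR). PRPS1 was at 28.2 ± 14.5 CPM against 30.7 ± 4.94 CPM in pools and did not pass (difference of 0.26 in log2, SE 0.19; 0.69 and past the threshold with DESeq2 size factors).

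In glycolysis 8 of 15 members tested were called higher and 2 lower in single oocytes. The largest rises were those of ENO1 (difference of 4.66 in log2, SE 0.68, from 0.498 to 7.56 CPM), TPI1 (3.68, SE 0.79, from 1.46 to 9.96 CPM) and HK1 (3.14, SE 0.74, from 0.494 to 2.78 CPM). GAPDH rose by 2.78 (SE 0.63), ALDOC and PFKP each by 2.64, PFKM by 1.75 and GPI by 1.27 on the log2 scale. LDHB fell, with a range of 25.4 to 34.3 CPM in pools and of 0 to 21.9 CPM (median 2.72) in single oocytes (difference of -2.45 in log2, SE 0.36, adjusted p = 1.95e-06 by edgeR). LDHA fell by 0.81 (SE 0.33, adjusted p = 0.0313 by edgeR), a call that was lost with DESeq2 size factors (-0.38). HK2 and SLC2A1 differed by less than their SE, and PKM stood at 13.9 ± 7.95 and 10.24 ± 5.39 CPM.

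The citrate cycle split by enzyme, with 7 of 15 members called higher and 4 lower. IDH3G, the regulatory gamma subunit of the NAD-dependent isocitrate dehydrogenase, rose, with a range of 0 to 3.27 CPM in pools and of 2.28 to 58.0 CPM in single oocytes (difference of 4.64 in log2, SE 0.56, adjusted p = 9.25e-08 by edgeR), while its catalytic partner IDH3A fell by 0.71 (SE 0.18, adjusted p = 0.00120 by edgeR), a call that was lost with DESeq2 size factors (-0.28, adjusted p = 0.138). ACO1 rose from a median of 1.69 to a median of 30.9 CPM (difference of 4.00 in log2, SE 0.65, adjusted p = 8.05e-06 by edgeR), and it was 2.30 in normal libraries alone. OGDH rose from 2.23 ± 2.18 to 14.4 ± 9.63 CPM (difference of 3.16 in log2, SE 0.61, adjusted p = 6.06e-05 by edgeR) and IDH2 from 8.25 ± 7.62 to 28.8 ± 13.7 CPM (2.72, SE 0.42, adjusted p = 3.37e-06 by edgeR). SUCLG1, MDH2 and CS were called higher as well, at log2 differences of 1.96, 1.86 and 0.77. IDH3B (1.91) and FH (0.76) did not pass, and passed with DESeq2 size factors (2.37 and 1.22). IDH1 fell from 57.5 ± 24.4 to 13.4 ± 6.44 CPM (difference of -1.62 in log2, SE 0.24, adjusted p = 1.50e-06 by edgeR), and SUCLA2 and SUCLG2 fell by 1.55 and 1.16 on the log2 scale.

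Shares within families of isozymes were set beside each other, and for isocitrate dehydrogenase the form with most counts differed between the kinds of library. IDH1 took 71.6% to 98.6% of the counts of IDH1 and IDH2 in pools (median 90.4%) and 8.20% to 70.5% in single oocytes (median 30.2%), where it held the majority in 4 of 29 libraries. In pools its share was 90.4% to 98.6% in deficient and 71.6% to 90.9% in normal libraries, and in single oocytes the medians were 30.7% and 29.4%. LDHA took a median of 61.9% of the counts of LDHA and LDHB in pools and 88.7% in single oocytes, and PRPS2 took 57.0% and 74.4% of its pair. For SUCLA2 the share of its pair was 60.6% and 54.5%. HK2 held 98.2% of the hexokinase counts in pools and 90.9% in single oocytes, PFKP 87.2% and 93.3% of the phosphofructokinase counts, and SLC2A1 94.5% and 100.0% of the transporter pair, so the same form led in the median of both. A share is not divided by transcript length, and in single oocytes many rest on few counts, with a median of 55 counts for the IDH pair and 18 for the SUCL pair.

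**Figure D5:**
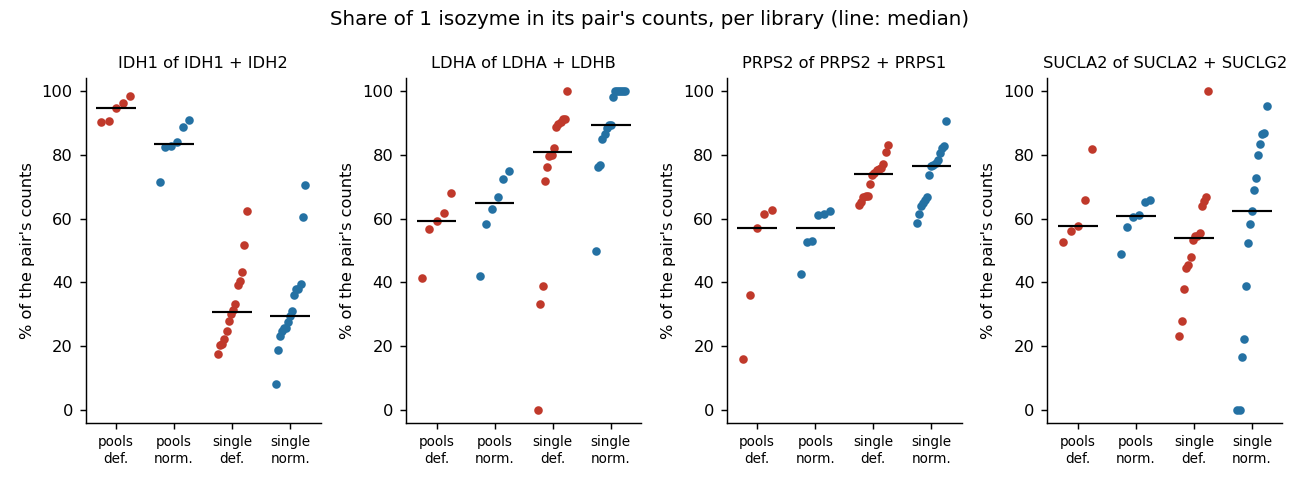
Share of the first isozyme in the counts of its pair (%), in each pool and single oocyte, by mtDNA state (red deficient, blue normal), with a line at each group's median, for IDH1 with IDH2, LDHA with LDHB, PRPS2 with PRPS1, and SUCLA2 with SUCLG2. IDH1 holds most counts in pools and a median of 30.2% in single oocytes, the LDHA and PRPS2 shares are higher in single oocytes, and the SUCLA2 share spreads widely there.

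Other genes of these pathways were taken from a separate list. Of 59 listed, 54 had a row and 36 were tested in pools, with 0 called, as over all genes, and 14 higher and 22 lower (61.1% lower, against 50.2% of all genes). In the sums 32 were tested with 0 called, 16 higher and 16 lower, where 49.7% of all genes were higher. By library type 15 of 41 (36.6%) were called higher, against 35.1% of all genes, and 12 (29.3%) lower, against 34.0%. ME2, the mitochondrial malic enzyme that turns malate into pyruvate, had the most counts of this list in pools, at 517 ± 92.8 CPM, and SDHB, the iron-sulphur subunit of succinate dehydrogenase, stood at 211 ± 41.5 CPM, and their state differences in pools were smaller than their SE. The pyruvate dehydrogenase kinases PDK3, PDK1 and PDK2, which switch the complex off, stood at 111 ± 33.8, 36.6 ± 10.8 and 24.996 ± 17.9 CPM in pools, and MPC2, a subunit of the mitochondrial pyruvate carrier, at 26.7 ± 5.61 CPM against 4.22 ± 4.05 CPM in single oocytes.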

How the data were processed

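RNA-seq was made from pools and from single pig oocytes. The values are whole-number read counts per gene that the authors deposited, not normalized. The build Sscrofa10.2 and the tools TopHat2 2.0.14, Trim Galore, FastQC and edgeR are named per the submitters' processing notes; which tool made the counts, and with which strand setting, is not given in the sources used here. A row with no gene name, 1.05% to 4.75% of the counts of pools and 0.648% to 8.15% of single oocytes, was left out. The labels' design text gives 5 pools per group, while the labels hold 5 deficient and 6 normal pools.

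Counts of single oocytes were summed by state and title number. Each comparison was fitted over all genes kept by filterByExpr with edgeR 4.0.16 (TMM scaling, quasi-likelihood test, Benjamini-Hochberg adjustment, threshold 0.05) in R 4.3.3, with DESeq2 1.42.0 and limma 3.58.1 among the alternatives; the scripts were tested on simulated data. Named with per-library values were members at an unadjusted p under 0.05 in a state comparison, the 2 most abundant members of each pathway and, by library type, the 6 called members of largest difference in each direction with a mean of at least 10 CPM in 1 kind of library. Every member was described by level; other differences and the genes named from the second list were chosen after their values were seen. For the main tests, no log2 difference or direction is given for a single member whose difference is smaller than its SE. Values under alternatives are given whatever their SE, as for PDHA1 by library type with DESeq2 size factors (0.13, SE 0.17). Same-numbered sums deviated together (r = 0.143, 0.220 and 0.165), a hint from the data that they share something. They also hold oocytes of the same dates, so a pairing by number and a shared date cannot be told apart. The labels do not say what the numbers mark. The main test of the sums did not use the numbers as pairs, and the block on 6 sums was run as an alternative. The members and lists were chosen with earlier results of these data known. No genome sequence of the build was used, so no coordinates or sequences are printed.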

Additional observations from a re-analysis of the deposited data

Results flagged for a closer look

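In 10 of 120 groups of 4 to 6 libraries tested, 1 library stood far from the others of its group. The rule was Dixon's ratio, the gap to the next library over the range of the group, taken on CPM. Its rate of about 1 in 20 holds for independent, normally distributed values. The CPM were not checked for this and the groups share libraries, so the flags were not compared with chance. In deficient pools these were HK1 in A3 (1.99 CPM, next pool 0.605 CPM), TPI1 in B2 (2.38, next 0.652 CPM), TALDO1 in B2 (3.24, next 1.38 CPM), ACO1 in B2 (4.02, next 1.02 CPM) and SUCLA2 in B4 (70.1, next 33.0 CPM). In normal pools it was ACO1 in A3 (26.2, next 6.25 CPM). Among the deficient sums of single oocytes, sum 4, of 7 oocytes from both dates, stood above the others for ENO1 (7.60, next 4.76 CPM), IDH3A (38.6, next 20.9 CPM) and IDH3G (31.9, next 24.3 CPM), and sum 3 stood below them for GPI (4.08, next 10.4 CPM).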

How the results depend on the processing

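No member was called for the mtDNA state, or for its difference between kinds of library, under any alternative run. Over all genes the count of calls was 0 in the main tests. In pools it was 28 with DESeq2. In the sums it was 2 with DESeq2, 4 without a filter on low counts, 2 with the replicate block, 1 with each oocyte as a sample, 3 with that and the title number as replicate block, 2 for 17 September only and 1 with the date as covariate. For the difference of the effects it was 3 with each oocyte as a sample, 1 with DESeq2 and 6 without a filter. The replicate block on the 8 pools that share a number called 0 genes. So did the same 8 pools unblocked, the same 6 sums unblocked and 9 sums by title number and date. These last 3 settings were chosen after seeing the data. In their deviations from the group means, same-numbered pools A2, A3, B2 and B4 correlated at -0.105, 0.127, 0.476 and 0.0781. The highest correlations of these deficient pools with a normal pool of another number were 0.289, 0.120, 0.197 and 0.0224. A3, B2 and B4 correlated best with their own number, A3 by little, and A2 did not. The labels do not say what the pool numbers mark.

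Signs turned for ENO1 in pools with the RN18S share as covariate (0.29), PGD in pools with genes detected as covariate (0.067), HK2 in pools titled B (0.15), ACO1 in the sums on 17 September (-0.18), FH with each oocyte as a sample and the block (-0.021), and PDHA1 between kinds of library with DESeq2 size factors (0.13) and with DESeq2 (0.13); the cause was not tested. Few counts of many members in single oocytes, and sums of only 2 to 7 oocytes, limit the precision there.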
